A study of Mus musculus with 8 samples.

Results

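The 10 genes *Mbnl1*, *Mbnl2*, *Mbnl3*, *Celf1*, *Celf2*, *Rbfox2*, *Ptbp1*, *Ptbp2*, *Rbm24* and *Rbm38*, which code for RNA-binding proteins that regulate splicing in muscle, were taken by name from the expression table and from the m6A peak lists of C2C12 cells. All 10 were among the 27179 genes of the table, and all 10 were among the 11406 genes that passed the filter on low values. C2C12 is an immortalized mouse myoblast line, grown here on dishes coated with collagen in high glucose medium. GM cells were dividing cells at 50% confluence in medium with 10% fetal bovine serum. 3d DM cells had been switched near confluence to medium with 2% horse serum for 3 days, which starts differentiation into myotubes. Each state had 2 input libraries of poly(A) RNA (RNA-seq) and 2 libraries precipitated with an antibody against N6-methyladenosine (MeRIP-seq), and nothing in the labels says whether replicates came from separate cultures.

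Muscle genes carry many exons that are skipped in dividing precursors and included in mature fibres, or the reverse. Muscleblind-like proteins (*Mbnl1*, *Mbnl2*, *Mbnl3*) and CELF proteins (*Celf1*, *Celf2*) act on many of the same exons, often in opposite directions, and their balance shifts as muscle matures. Rbfox2 binds GCAUG elements beside exons, the polypyrimidine tract-binding proteins (*Ptbp1*, *Ptbp2*) mostly repress exons, and *Rbm24* and *Rbm38* code for related proteins with a single RNA-recognition motif that act on splicing and on mRNA stability. The tables hold 1 value per gene, so exon use itself was not measured.

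The stretches of RNA sequence that the m6A peaks shared among libraries are shown first, because the peak results below refer to them. m6A is usually placed within DRACH, which stands for A, G or T, then A or G, then A, C and a last base that is A, C or T. Each 29-base window is centred on 1 such site (capitals) inside the bases common to all libraries that held the peak, chosen as GGACT where there was one, then another GGAC form, then any DRACH, nearest to the middle of these bases, and windows and regions may hold further sites. Each is written 5′ to 3′ on the strand of the RNA, with T for U, and read from the mm10 genome.
*Rbfox2*, coding sequence, peak in 4 libraries, chr15:77132809-77132837, minus strand: gccacacactcaGGACTatgccggccaga
*Mbnl1*, 3′ untranslated region, peak in 4 libraries, chr3:60629185-60629213, plus strand: gaactatgctaaGGACAtatattattcag
*Mbnl2*, 5′ part of the transcript, peak in 4 libraries, chr14:120325090-120325118, plus strand: gtttcctggattGGACTgcattaaagaat
*Celf1*, 3′ untranslated region, peak in 4 libraries, chr2:91018269-91018297, plus strand: cagatcccactgAGACTtaagcactggtg
*Celf2*, 3′ untranslated region, peak in 4 libraries, chr2:6542921-6542949, minus strand: ttcctcagagacAGACTgtccttcctctc
*Ptbp1*, end of the coding sequence and start of the 3′ untranslated region, peak in GM only, chr10:79863431-79863459, plus strand: aggaaatggcttGGACCacagaggcccag
*Rbm24*, 3′ untranslated region, peak in 3d DM only, chr13:46429642-46429670, plus strand: tatcagggaagcAAACTgccttttccaag
*Rbm38*, end of the coding sequence, peak in 4 libraries, chr2:173033626-173033654, plus strand, middle of the shared bases, with no DRACH: cgcccagtacccgccagccacttacgacc

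Which of these regulators differed in transcript level between dividing and differentiating cells was asked of the input libraries. *Rbm24* and *Rbm38* rose in 3d DM, and *Ptbp1* and *Mbnl3* fell, so 4 of the 10 genes changed, 2 in each direction. Among all 11406 genes tested, 17.0% were called, 7.01% as higher and 9.96% as lower in 3d DM. Values of the 2 states did not overlap for 7 of the 10 genes, 3 higher (*Rbfox2*, *Rbm24*, *Rbm38*) and 4 lower (*Mbnl2*, *Mbnl3*, *Ptbp1*, *Ptbp2*). Over all tested genes, 16.8% were higher and 37.0% lower without overlap, so the 4 lower of 10 were near the share of all genes. Values are the authors' normalized values, and changes are on the log2(value + 1) scale as 3d DM minus GM with the SE from limma. The median change of all tested genes was −0.22, so a gene at 0 on this scale lies above the middle of the genes. Its counterpart over the 10 genes was −0.06, with 5 above and 5 below 0, and with 4 below the median of all tested genes.

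**Figure D1:**
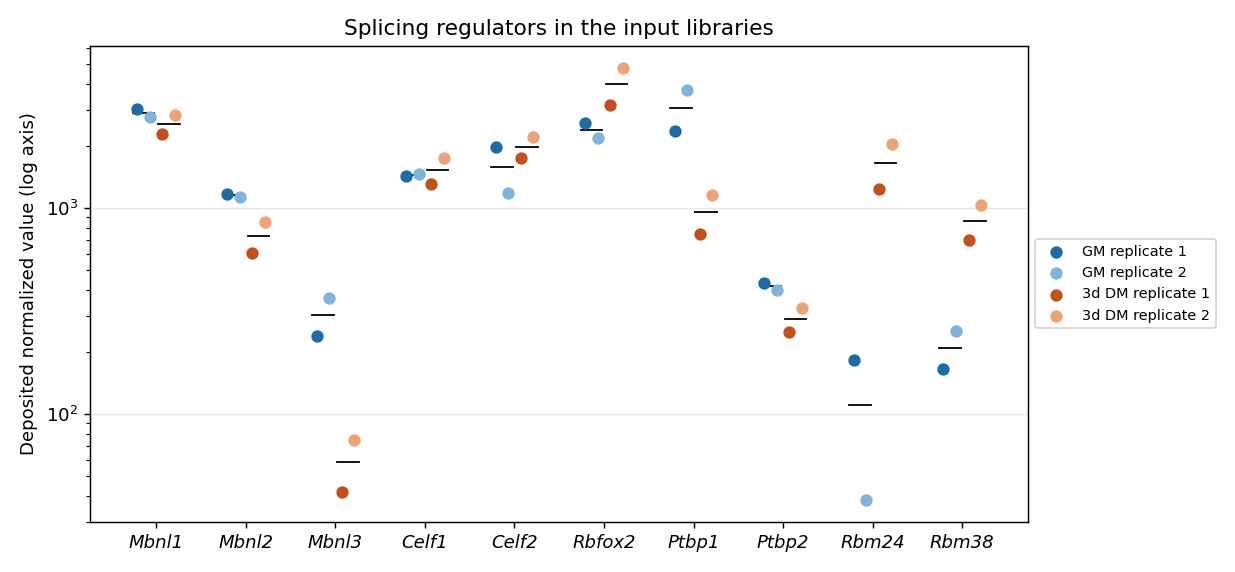
Normalized value (log axis) of each of the 10 splicing regulators in the 4 input libraries, with 1 point per library and a bar at the mean of each state (n = 2). *Rbm24* and *Rbm38* have both 3d DM points above both GM points, and *Mbnl3* and *Ptbp1* have both below.

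*Rbm24*, whose protein is enriched in skeletal and heart muscle and favours inclusion of muscle exons, had the largest change of the 10. GM replicates 1 and 2 had values of 183 and 38.2, and 3d DM replicates 1 and 2 had values of 1238 and 2054. Both 3d DM libraries were far above both GM libraries, and the ratio between the GM libraries was larger than for any other of the 10 genes. The rise was 4.23 ± 0.45 (SE, n = 2 per state; limma, adjusted p = 1.1e-18). GM replicate 1 was also above GM replicate 2 in genes of differentiated muscle, with 1008 against 221 for *Myog*, the transcription factor myogenin, and 1068 against 273 for *Myh3*, embryonic myosin heavy chain. The part of this difference between the GM libraries in the *Rbm24* result was not tested. Its change was 5.35 without GM replicate 1 and 3.11 without GM replicate 2. In bulk RNA, more differentiated cells and more RNA per cell cannot be told apart.

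*Rbm38*, coding for a relative of Rbm24 that is induced by p53 and stabilizes *Cdkn1a* mRNA, stood at 166 and 252 (GM replicates 1 and 2) and rose to 696 and 1035 (3d DM replicates 1 and 2). The states were well separated, and here GM replicate 1 was the lower GM library. The change was 2.05 ± 0.45 (SE; limma, adjusted p = 7.8e-05). *Cdkn1a*, the cell cycle inhibitor p21, rose as well, by 2.98 (limma, adjusted p = 1.1e-11).

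*Ptbp1*, the form of the polypyrimidine tract-binding protein found in most dividing cells, stood at 2374 and 3746 (GM replicates 1 and 2) and at 751 and 1154 (3d DM replicates 1 and 2). The lower GM library was still over the higher 3d DM library. *Ptbp1* fell by 1.68 on the log2 scale (SE 0.42; limma, adjusted p = 0.00073). *Ptbp2*, the form best known from neurons, was much lower than *Ptbp1*, with values of 433 and 400 (GM) against 248 and 326 (3d DM). Its change of −0.55 ± 0.45 (SE) did not pass the test (limma, adjusted p = 0.50).

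*Mbnl3* (chrX:51117269-51206532, minus strand), the muscleblind gene known for expression in dividing muscle precursors, stood at 239 and 367 (GM replicates 1 and 2) and at 41.5 and 75.1 (3d DM replicates 1 and 2). It was the lowest of the 10 genes in both 3d DM libraries. *Mbnl3* fell by 2.39 on the log2 scale (SE 0.50; limma, adjusted p = 2.7e-05). *Mbnl2* had values of 1172 and 1132 (GM) and of 605 and 853 (3d DM), a change of −0.68 ± 0.43 (SE; limma, adjusted p = 0.33) that did not pass the test although the states did not overlap. *Mbnl1*, the main muscleblind gene of adult skeletal muscle, had values of 3019 and 2761 (GM) and of 2282 and 2830 (3d DM). Its states overlapped, and its change of −0.18 ± 0.41 (SE; limma, adjusted p = 0.85) became 0.04 when the libraries were rescaled by median-of-ratios factors.

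*Rbfox2* had values of 2588 and 2190 (GM) and of 3147 and 4802 (3d DM). It did not pass the test with the values as deposited (0.71 ± 0.41 (SE); limma, adjusted p = 0.27), but it did after median-of-ratios rescaling (0.93; limma, adjusted p = 0.014). The rescaling places the median gene near 0 and also takes out offsets between the libraries of a state. Its log2 factors were 0.23 and −0.00092 (GM replicates 1 and 2) and −0.36 and 0.14 (3d DM replicates 1 and 2). *Mbnl2* then had a smaller change (−0.45) with a lower adjusted p (limma, 0.10). *Celf1*, with values of 1430 and 1454 (GM) and of 1310 and 1740 (3d DM), had a change of 0.07 ± 0.42 (SE; limma, adjusted p = 0.95). *Celf2*, with values of 1976 and 1176 (GM) and of 1749 and 2210 (3d DM), had a change of 0.37 ± 0.42 (SE; limma, adjusted p = 0.66). As deposited, both CELF genes overlapped between states, and the wide gap between the GM libraries of *Celf2* covered one of its 3d DM values. That overlap holds for values that still include the offsets between libraries. After median-of-ratios rescaling the changes were 0.29 for *Celf1* (limma, adjusted p = 0.27) and 0.59 for *Celf2* (limma, adjusted p = 0.11).

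**Figure D2:**
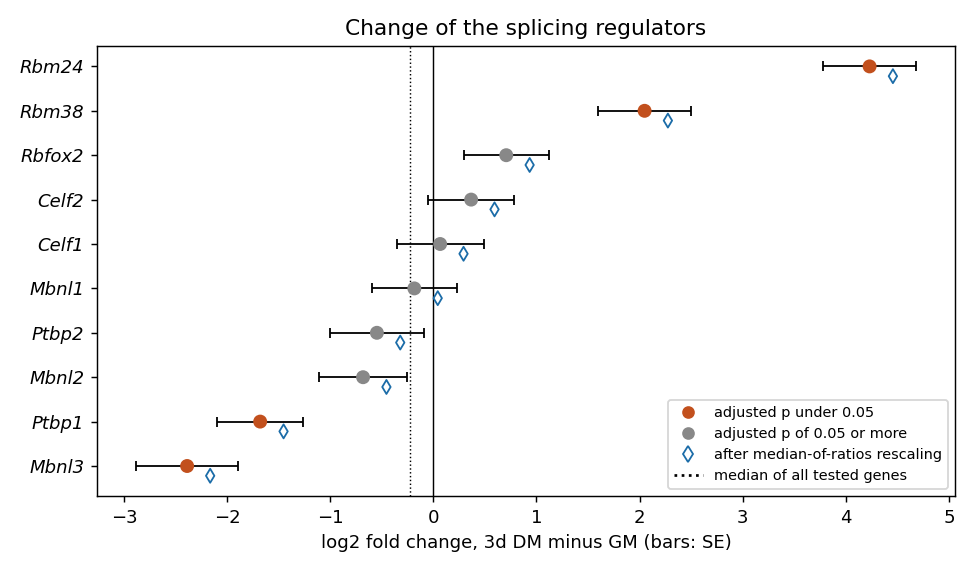
Log2 fold change of the 10 genes, 3d DM minus GM, with bars for the SE (limma, n = 2 per state), open diamonds for the change after median-of-ratios rescaling, and a dotted line at the median of all tested genes (−0.22). *Rbm24* (4.23) and *Rbm38* (2.05) lie to the right, *Ptbp1* (−1.68) and *Mbnl3* (−2.39) to the left, and *Mbnl1* moves from −0.18 to 0.04 across the line at 0 with rescaling.

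With the deposited values the SE followed the trend over intensity rather than each gene's own replicates, whereas after median-of-ratios rescaling it drew on both, and the adjusted p of limma was then 0.0069 for *Rbm24*, 0.0062 for *Rbm38*, 0.023 for *Ptbp1* and 0.010 for *Mbnl3*. Of these 4 genes, without 3d DM replicate 1 none kept an adjusted p under 0.05 (0.075, 0.062, 0.15 and 0.10 in that order), without 3d DM replicate 2 *Mbnl3* did but not *Rbm24* (0.077), *Rbm38* (0.076) or *Ptbp1* (0.054), and the call was lost for *Rbm38* without GM replicate 1 (0.11) and for *Ptbp1* without GM replicate 2 (0.30). The direction of all 4 was kept in each of these fits, in which the state left with 1 library was assumed to vary like the other.

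Levels of different genes were compared per kilobase of exon, using the summed length of all exons annotated by GENCODE M21 (GRCm38). In GM, *Ptbp1* had the highest level per kb (646 ± 205; SD, n = 2), followed by *Rbfox2* (293 ± 35), *Celf1* (171 ± 2.0), *Mbnl1* (154 ± 9.8), *Mbnl2* (96.1 ± 2.4), *Rbm38* (72.8 ± 21.2), *Celf2* (60.9 ± 21.8), *Ptbp2* (45.4 ± 2.5), *Mbnl3* (34.7 ± 10.3) and *Rbm24* (31.7 ± 29.4). In 3d DM the order was *Rbfox2* (488 ± 144), *Rbm24* (471 ± 165), *Rbm38* (302 ± 84), *Ptbp1* (201 ± 60), *Celf1* (181 ± 36), *Mbnl1* (137 ± 21), *Celf2* (76.5 ± 12.6), *Mbnl2* (60.8 ± 14.6), *Ptbp2* (31.3 ± 6.0) and *Mbnl3* (6.67 ± 2.71). By these means *Rbm24* stood last in GM and beside *Rbfox2* in 3d DM, while *Ptbp1* went from first to below *Rbfox2*, *Rbm24* and *Rbm38*. The ranges of the library pairs overlapped between these neighbours in GM: *Rbm38* and *Celf2*, *Celf2* and *Ptbp2*, and *Mbnl3* and *Rbm24*. In 3d DM they overlapped along the order from *Rbfox2* through *Rbm24*, *Rbm38* and *Ptbp1* to *Celf1*, and between *Celf2* and *Mbnl2*. The order rests on the length used: per kb of the longest annotated transcript, *Mbnl1* was at 511 ± 32 in GM, above *Rbfox2* (346 ± 41), and at 452 ± 69 in 3d DM, above *Rbm38* (379 ± 105) and *Ptbp1* (301 ± 90), and *Celf2* (224 ± 37) was above *Celf1* (194 ± 39) in 3d DM. By the means with either length *Ptbp1* was first and *Rbm24* last in GM, and *Rbfox2* first and *Rbm24* next in 3d DM. In GM replicate 1 alone, *Rbm24* (52.6 per kb of exon) was above *Ptbp2* (47.2) and *Mbnl3* (27.4).

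Within the muscleblind family, *Mbnl3* made up 9.56% and 14.8% of the summed level per kb in the GM libraries and 2.68% and 3.72% in the 3d DM libraries. The share of *Mbnl1* was 54.1 ± 3.1% (SD, n = 2) in GM and 67.2 ± 2.4% in 3d DM, and that of *Mbnl2* was 33.7 ± 0.62% and 29.6 ± 1.6%. *Ptbp1* held 93.1 ± 2.4% of the sum of *Ptbp1* and *Ptbp2* in GM and 86.3 ± 1.3% in 3d DM. It thus stayed by far the more abundant of this pair while its own level fell. The pair leaves out *Ptbp3*, which is not among the 10 genes. *Ptbp3* stood at 205 ± 12 (GM) and 93.1 ± 22.4 (3d DM) per kb of exon, above *Ptbp2* in both states. *Rbm24* held 47.6% and 11.1% of the *Rbm24* and *Rbm38* sum in the GM libraries and 59.4% and 62.0% in the 3d DM libraries. *Celf2* held 31.1% and 20.9% of the CELF pair in GM and 30.3% and 29.3% in 3d DM, with overlap between the states. These shares describe the libraries and were not tested, and they depend on the length used for each gene. With the longest annotated transcript, *Celf2* held 48.4 ± 9.4% (GM) and 53.6 ± 0.88% (3d DM) of the CELF pair, so the larger CELF form in 3d DM depends on the length, and the *Mbnl3* share was 8.36 ± 2.67% (GM) and 2.06 ± 0.49% (3d DM).

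**Figure D3:**
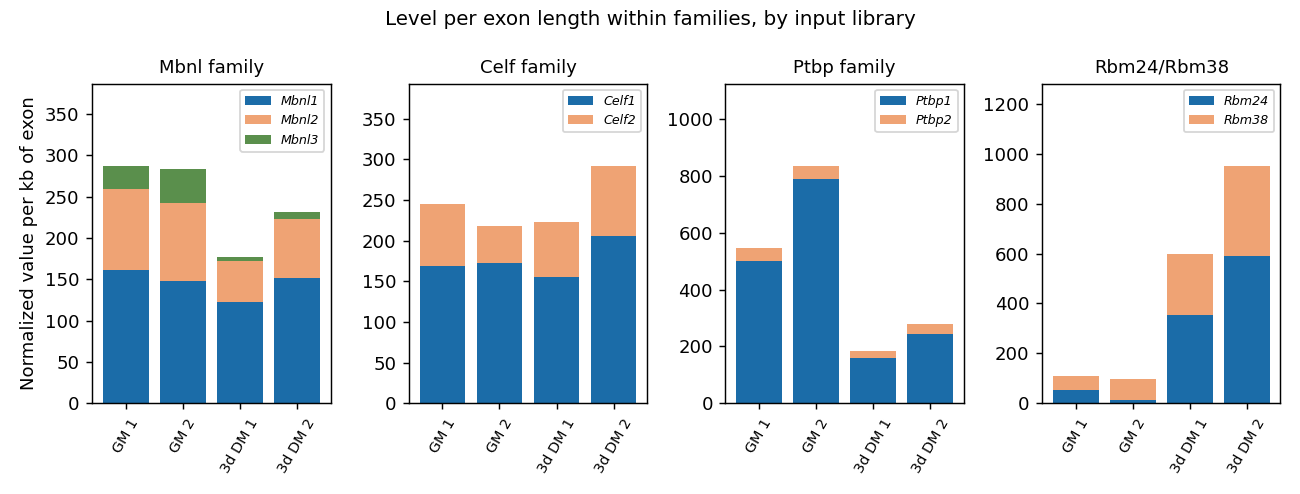
Stacked bars of the normalized value per kb of exon for the muscleblind (*Mbnl*), CELF (*Celf*), PTB (*Ptbp*) and *Rbm24*/*Rbm38* genes in each of the 4 input libraries, each panel with its own axis from 0. The *Mbnl3* part shrinks from 27.4 and 42.0 in GM to 4.75 and 8.59 in 3d DM, and the *Rbm24* part grows from 52.6 and 10.9 to 355 and 588.

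The genes whose 4 library values followed *Rbm24* most closely, by the Euclidean distance of the centred log2 values, were *Asb2* (distance 0.24), a subunit of a muscle ubiquitin ligase, *Myog* (0.31) and *Igf1* (0.39), which codes for insulin-like growth factor 1. *Myog* was at 1008, 221, 5392 and 11502 in the order of libraries used above. *Asb2* and *Igf1* were low, at up to 142 and 67.5. Nearest to *Mbnl3* were *Errfi1* (0.067), a feedback inhibitor of the EGF receptor, *Shmt1* (0.11), an enzyme of folate metabolism, and *Polq* (0.12), a DNA repair polymerase. *Errfi1* was at 1461, 2195, 243 and 440. These genes were picked for their nearness, so the direction they share with *Rbm24* or *Mbnl3* follows from the choice.

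The state of the cells was checked with 10 genes. *Myog* (4.06), *Myh3* (6.26), *Ckm* (5.38), *Acta1* (5.56) and *Cdkn1a* rose, which are genes of differentiating muscle and of cell cycle exit, and *Mki67* (−2.63), *Ccnd1* (−3.77) and *Myf5* (−2.14), genes of dividing myoblasts, fell. *Pax7* (0.26) and *Myod1* (−0.10) did not pass the test. Of 12 markers of other cell types, 11 were under the filter. *Ptprc*, *Pecam1*, *Cdh5* and *Adipoq* were at or near 0. *Cd68*, a leukocyte marker like *Ptprc*, was at 26.4 and 16.1 (GM) and 14.7 and 9.94 (3d DM). *Tubb3*, a tubulin known from neurons, passed the filter, with values of 1334 and 1785 (GM) and 486 and 778 (3d DM).

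Of 34 other genes for tissue-specific splicing regulators, 20 were tested, of which 2 rose and 3 fell, with a median change of −0.30 against −0.22 for all genes. Of those 5, *Rbfox1*, *Srpk3* and *Celf4* passed the filter only through the state in which they were high, so they had to differ and only their values are given. Among the 17 genes that pass with the filter in 3 libraries, 0 rose and 1, *Khdrbs3*, fell in limma. *Rbfox1*, the paralog of *Rbfox2* found in mature muscle, was listed at 0 in both GM libraries and had values of 104 and 133 in 3d DM. *Srpk3*, a muscle kinase for splicing factors, went from 13.8 and 3.02 (GM) to 255 and 344 (3d DM), and *Celf4*, best known from brain, went from 184 and 92.3 to 2.85 and 6.80. *Khdrbs3*, whose protein belongs to the STAR family of RNA-binding proteins, fell by 1.53 (limma, adjusted p = 0.017). *Ptbp3*, the other PTB gene, fell by 1.16 (GM values 1595 and 1471, 3d DM values 578 and 815; limma, adjusted p = 0.042). Both of these calls were lost without any one of the 4 libraries (adjusted p from 0.081 to 0.23 for *Khdrbs3* and from 0.065 to 0.46 for *Ptbp3*) and with the replicate number as a block (0.077 and 0.21), and that of *Ptbp3* also without the intensity trend (0.071).

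Of 36 genes for core parts of the spliceosome, which every cell uses, 35 were tested, with a median change of −0.85 against −0.22 for all genes. Their change was below 0 for 33 and below the median of all tested genes for 32. Without overlap, 31 were lower in 3d DM, as were 37.0% of all tested genes. In limma 17 of the core genes had an unadjusted p under 0.05, as did 2987 of all 11406 tested genes. After adjustment 3 core genes fell, *Snrpa1* (−1.49), *Snrpd1* (−1.47) and *Snrpa* (−1.26), and none rose. After median-of-ratios rescaling 12 fell and none rose (over all genes 800 rose and 1136 fell as deposited, and 1365 and 1282 after rescaling). With any one library left out most of these 3 calls were lost. The changes were then −1.80 to −1.17 for *Snrpa1*, −1.67 to −1.27 for *Snrpd1* and −1.64 to −0.88 for *Snrpa*. With the replicate block 0 of the core genes were called in limma, with 5 at an unadjusted p under 0.05. Of 30 muscle genes with exons known to be regulated, 29 were tested, and 18 rose and 1 fell, with a median of 2.11. The largest rises were those of *Cacna1s* (6.11), the voltage sensor of the muscle calcium channel, the troponins *Tnnt3* (5.67) and *Tnnt1* (5.46), *Neb* (5.07), coding for nebulin, and *Mef2c* (5.02), a muscle transcription factor. *Pkm*, a glycolytic enzyme gene whose alternative exons are a known target of Ptbp1, was the one that fell (−1.25; limma, adjusted p = 0.014), a call lost with the replicate block (0.075) and without GM replicate 1 (0.16), 3d DM replicate 1 (0.24) or 3d DM replicate 2 (0.11). The lists were chosen for this description, and they show the levels of these genes and not the use of their exons.

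**Figure D4:**
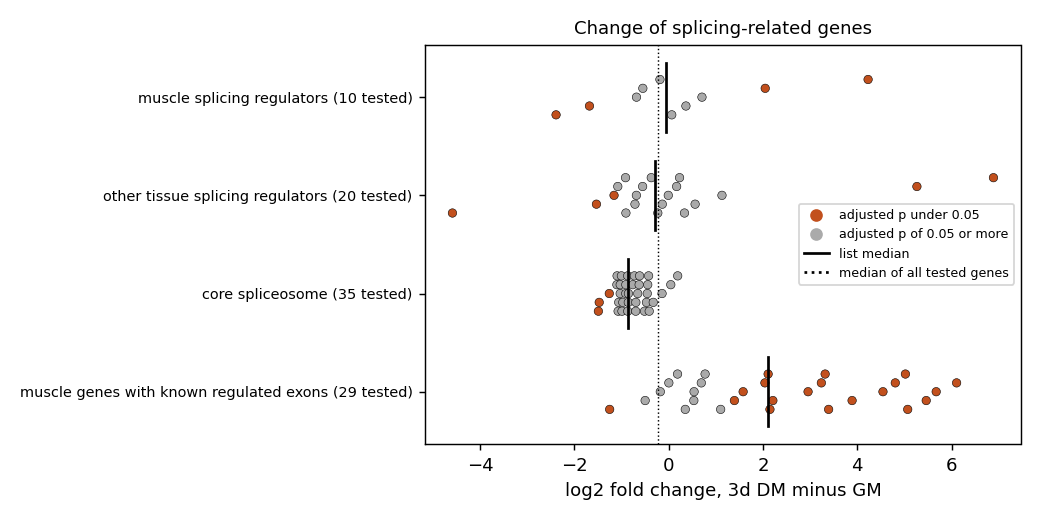
Log2 fold change, 3d DM minus GM, of each tested gene (points, orange where the adjusted p was under 0.05) in the 10 splicing regulators, 20 other tissue splicing regulators, 35 core spliceosome genes and 29 muscle genes with known regulated exons, with a bar at each list's median and a dotted line at the median of all genes. The medians were −0.06, −0.30, −0.85 and 2.11.

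Where the mRNAs of these genes carried m6A was asked of the 4 peak lists, in which the authors called peaks for each library over its own input. Lines of different transcripts that shared at least 1 base were merged into regions of exon bases, which can extend over introns. The 10 genes held 308 lines in 28 regions, with peaks on 8 of the genes and none on *Mbnl3* or *Ptbp2* in any list. Peaks in all 4 libraries were found on 6 genes, *Mbnl1*, *Mbnl2*, *Celf1*, *Celf2*, *Rbfox2* and *Rbm38*, whereas 42.6% of all tested genes had a peak in all 4 and 23.8% had none. *Ptbp1* had peaks in the pair of GM lists and none in the 3d DM lists, which 2.67% of tested genes did, and *Rbm24* had peaks in the pair of 3d DM lists and none in the GM lists, which 1.74% did. The states in which *Ptbp1* and *Rbm24* had peaks were those in which their transcripts were higher, and the part of transcript level in peak calling was not tested.

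Each library had a peak on 7 of the 10 genes. Distinct peaks on them numbered 14 for each GM library, 21 for 3d DM replicate 1 and 13 for the other 3d DM library. The 3d DM libraries were thus on either side of the GM libraries, and the exact two-sided permutation test gave p = 1.0 (the smallest p that 2 against 2 libraries can give is 0.333). Without 3d DM replicate 1 the mean difference turned from 3.0 to −1.0. Of the 28 regions, 7 were in all 4 lists, 4 in 3, 4 in 2 and 13 in 1. The authors' labels placed 15 of them in the 3′ untranslated region alone and 4 in coding sequence alone.

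*Mbnl2* had 9 regions and *Mbnl1* had 6, more than the other genes. The *Mbnl2* region in all 4 lists lay in the 5′ part of its transcripts (881 exon bases within chr14:120275855-120385436, plus strand), centred 1171 bases before the end of the coding sequence, and holds the GGACT window shown above. Its fold enrichment was 5.64 and 4.29 (GM) and 4.35 and 5.09 (3d DM), overlapping between states. *Mbnl1* had 2 regions in all 4 lists. One lay around the end of the coding sequence (757 exon bases within chr3:60615739-60626895), with folds of 2.87 and 1.73 (GM) and 2.04 and 2.54 (3d DM), and the other near the end of the 3′ untranslated region (chr3:60628951-60629571), with folds of 4.05 and 2.1 (GM) and 3.43 and 2.97 (3d DM). In both, the 3d DM values lay between the GM values. The peaks of the 4 libraries had only 9 bases in common in the first region, against 251 in the other. Folds of the first region therefore need not come from the same stretch.

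*Celf1* had a single region (chr2:91018204-91018543, plus strand), 4873 bases past the end of the coding sequence, the farthest of the 28. Its folds were 2.12 and 2.08 (GM) and 1.74 and 3.10 (3d DM). The *Celf2* region in all lists (chr2:6542745-6543244, minus strand) lay 2833 bases past the coding sequence, with folds of 3.82 and 2.40 (GM) and 2.17 and 2.92 (3d DM), and another pair of regions nearer to the coding sequence was listed in 3d DM replicate 1 alone. Both CELF genes thus had their shared peak deep in the 3′ untranslated region, and the site shown for each is the one nearest to the middle of the shared bases, which hold 2 DRACH sites for *Celf1* and 5 for *Celf2*.

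The *Rbfox2* region in all 4 lists was in coding sequence (636 exon bases within chr15:77099486-77306412, minus strand) and holds the GGACT window shown above. Its fold was 3.93 and 6.52 (GM replicates 1 and 2) and 2.33 and 2.48 (3d DM replicates 1 and 2). Both 3d DM libraries were below both GM libraries, while the transcript itself was higher in both 3d DM libraries. The change was −1.07 ± 0.40 on the log2 scale (SE; limma, unadjusted p = 0.019, adjusted p = 1.0), so it did not pass the test over all regions. With the median fold of the lines in place of the highest, it was −0.53. A region in the 3′ untranslated region (chr15:77083382-77084010) was listed in GM replicate 2 (2.30) and 3d DM replicate 1 (3.56).

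*Rbm38* had a region in all 4 lists at the end of its coding sequence (chr2:173033537-173033729, plus strand), centred 140 bases before its end. Its fold was 1.95 and 8.22 (GM replicates 1 and 2) and 1.65 and 2.17 (3d DM replicates 1 and 2). GM replicate 2 stood apart, and the other 3 libraries overlapped. The change was −1.08 ± 0.54 (SE; limma, unadjusted p = 0.065, adjusted p = 1.0), and without GM replicate 2 it was −0.04. None of the 193 bases of this region completed a DRACH, which says only that these letters do not occur in this window.

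**Figure D5:**
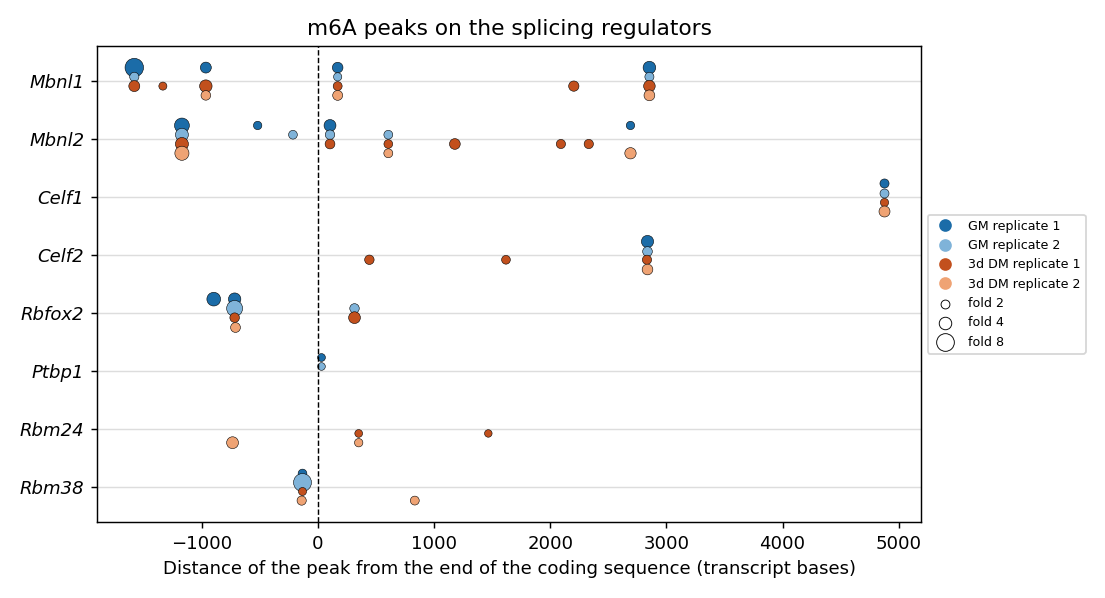
Position of each peak region on the 8 genes with a peak, as the distance of its centre from the end of the coding sequence in transcript bases (median over the lines of a region, dashed line at 0), with 1 point per library that lists it and a point area proportional to the fold enrichment. *Ptbp1* has points of GM libraries only, *Rbm24* of 3d DM libraries only, and the *Celf1* points lie 4873 bases past the coding sequence.

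On *Ptbp1* the GM peaks covered the end of the coding sequence and the start of the 3′ untranslated region (chr10:79862789-79863613, plus strand), with low folds of 1.56 and 1.5. On *Rbm24* the region shared by the 3d DM libraries lay 351 bases past the coding sequence (chr13:46429567-46429807, plus strand), with folds of 1.54 and 1.79. A further *Rbm24* region near the start of the coding sequence (chr13:46418913-46419093) was listed in 3d DM replicate 2 alone, with a fold of 3.60, and another in the 3′ untranslated region (chr13:46430706-46430855) in 3d DM replicate 1 alone, with a fold of 1.46. The folds on these genes were low beside other peaks. In the lists of GM replicates 1 and 2 and of 3d DM replicates 1 and 2, in this order, the median fold of the regions on the 10 genes was 3.34, 2.18, 2.20 and 2.54, and that of all regions was 4.67, 4.25, 4.06 and 4.57.

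Over all genes, 6055 regions had a peak in all 4 lists, and 0 of them, or 0.0%, passed the test for a difference in fold between the states in limma at an adjusted p of 0.05. At an unadjusted p under 0.05 there were 208, or 3.44% of the regions. The 7 regions on the splicing regulators had changes from −1.08 (*Rbm38*) and −1.07 (*Rbfox2*) through −0.27 (*Celf2*), −0.06 (*Mbnl2*), 0.03 and 0.13 (*Mbnl1*) to 0.15 (*Celf1*), around a median of all regions of −0.11. DRACH occurred 174 times in the 28 regions, or 20.0 times per kb, on the RNA strand, against 22.7 per kb in the peak regions of all genes. Its commonest form in m6A maps, GGACT, was found in 8 of the 28 regions and in 34.9% of all regions, which differ in length.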

How the data were processed

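The authors removed adaptors, used HISAT2 (v2.1.0) for alignment against mm10, and ran exomePeak on each library at P ≤ 0.05. The deposited peak lists give a p-value and a fold enrichment (ratio of precipitated over input RNA) per peak and transcript, as the authors' caller wrote them. The deposited expression signal, which the authors normalized with edgeR and named for TMM, sums to between 12534657 and 12536233 in every library. Its values are not whole reads, and pairs of low values recur within a state (47.4% of low genes in GM and 55.0% in 3d DM, 0.5% between states). Depth is therefore unknown, and no counting error is given.

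Values were matched by Entrez identifier to RefSeq symbols (98.7% of tested genes). A gene was tested when its value reached 2 cpm of the total (25.1) in 2 or more libraries, with limma (3.58.1, R 4.3.3) on log2(value + 1), with trend and Benjamini-Hochberg adjustment. All 10 genes exceeded 25.1 in every library. Log2 folds were tested likewise over regions with a peak in all 4 lists. The study's filter of 3 libraries was an alternative, beside pseudocounts, rescaling, a replicate block, stricter peaks and each library left out. The step was also run on simulated data, drawn independently for each library with a spread set by intensity alone. These simulated data held no offsets between libraries and no spread particular to a gene, so they do not test the fit for either. The genes, the lists and the rule for named genes (the 10 genes, called genes of the lists up to the 5 largest per direction, all state genes, and the 3 nearest patterns) were chosen with earlier results of these data known. P-values rest on the spread between these libraries, which may be technical. For expression as deposited, that spread is the intensity trend over the tested genes and not each gene's own. Calculations used Python 3.11.15.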

Additional observations from a re-analysis of the deposited data

How the results depend on the processing

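The median-of-ratios and trimmed-mean rescaling turned *Mbnl1* to 0.043 and 0.046 and brought *Rbfox2* past the threshold, at 0.93 and 0.94. They also called 4 higher and 5 lower genes of the other tissue splicing regulators and 12 lower genes of the core spliceosome, and turned *Myod1* (0.12 in both). With no filter on low values, where 27179 genes share the adjustment, the changes of *Mbnl3* (−2.39), *Ptbp1* (−1.68), *Rbm24* (4.23) and *Rbm38* (2.05) kept their size, but 0 of the 10 genes were called in either direction, as were 0 higher and 1 lower of the other tissue regulators, 0 of the core spliceosome, 1 higher and 0 lower of the muscle genes, 0 of the state genes and 0 of the other cell type markers. At an unadjusted p under 0.05 that limma fit had 4 of the 10 genes, 10 other tissue regulators, 15 core spliceosome genes, 16 muscle genes, 8 state genes and 1 other marker, and after adjustment it called 80 genes higher and 74 lower over the whole table. The filter in 3 libraries left 0 higher and 1 lower gene of the other tissue regulators and 524 higher genes in all. Pseudocounts of 0.1 and 4 and limma without trend changed no call among the 10 genes. With the replicate number as a block, the 4 calls among the 10 genes were kept, while the lower calls were 1 for the other tissue regulators, 0 for the core spliceosome, 0 for the muscle genes and 0 for the other cell type markers, and 705 over all genes. The numbers mark no batch in the labels, and deviations of same-numbered libraries correlated at 0.29 in expression and 0.13 in fold enrichment.

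With each library left out, the changes ranged from −0.34 to −0.03 for *Mbnl1*, −0.93 to −0.43 for *Mbnl2*, −2.81 to −1.97 for *Mbnl3*, −0.14 to 0.27 for *Celf1*, −0.0069 to 0.74 for *Celf2*, 0.40 to 1.01 for *Rbfox2*, −2.01 to −1.35 for *Ptbp1*, −0.74 to −0.35 for *Ptbp2*, 3.11 to 5.35 for *Rbm24* and 1.75 to 2.35 for *Rbm38*. Called genes ranged from 0 to 2 higher and 0 to 2 lower among the 10, 1 to 2 higher and 0 to 1 lower among other tissue regulators, 0 to 1 lower in the core spliceosome, 3 to 17 higher and 0 to 1 lower among muscle genes, 2 to 5 higher and 2 to 3 lower among state genes and 0 lower in each fit among other cell type markers. *Pax7* ranged from −0.037 to 0.55 and *Myod1* from −0.45 to 0.24. Each of these fits rests on fewer samples, and the state left with 1 library gives no spread of its own.

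With the longest transcript as length, the share of *Mbnl3* in its family changed by −6.30 percentage points in place of −8.98. Without single libraries that difference was −11.6 to −6.36 points, for *Celf2* −1.25 to 8.94 points in place of 3.84, and for *Rbm24* 13.1 to 49.6 points in place of 31.3. With all peaks, the difference of 3.0 in their number per library ranged from −1.0 to 7.0 with each library left out. Peaks with a fold of at least 4 were on 4 of the 10 genes, and their number differed by −2.5 between the states. At the regions in all lists 0 were called under every alternative, with ranges of −0.27 to 0.56 for *Celf1*, −0.60 to 0.069 for *Celf2* and −0.26 to 0.13 for *Mbnl2*, which was at 0.045 with libraries centred on their median. The causes were not tested, and 2 libraries per state limit all of these values.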
